A study of Caenorhabditis elegans with 4 samples.

Results

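The subject is a group of 5 genes from large, tandemly arranged families of *Caenorhabditis elegans*: the F-box genes *fbxa-55*, *fbxa-75* and *fbxa-15*, and the *pals* genes *pals-11* and *pals-7*. They were chosen by name from a list of 365 peaks of N6-methyladenine (6mA) in genomic DNA, as family members that the list names, and 4 of them lie close to other listed peaks. Each gene was named for 1 peak, so there were 5 member peaks of 365. The choice used the genes named for the peaks and the spacing of those peaks, so both are described here without a test.

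The series holds 4 libraries of whole wild-type animals of the strain Bristol at the L4 larval stage, raised from eggs at 22 °C. Untreated animals gave 1 library made with an antibody against the modified base and 1 library for which no antibody is given. Animals grown with antimycin A in the agar gave the same pair. Antimycin A blocks complex III of the mitochondrial respiratory chain, and the study asked how 6mA changes under this stress. Its dose is labelled 1.92 µM for both libraries, although the title of the antibody library reads 1.93 µM. With 1 library in each of the 4 groups there were no replicates.

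In methylated DNA immunoprecipitation sequencing, fragments bound by the antibody are sequenced, and stretches where they pile up are called as peaks. The list gives position, annotation class, signed distance to the nearest transcription start and nearest gene for each peak. It gives neither heights nor read counts, so depth and the strength of any member peak are unknown. The peak names share 1 prefix that no label explains, so the list was assigned to no library and treated animals were not compared with untreated ones. Of the 365 peaks, 364 lie on nuclear chromosomes. They carry 364 different gene names, so no gene is named for more than 1 nuclear peak. A peak can still lie in a gene other than the one it is named for.

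F-box proteins are the substrate-binding parts of SCF ubiquitin ligases. Their F-box motif binds a Skp1-related protein, encoded in worms by the *skr* genes, which links them to a cullin scaffold, and the bound target is marked with ubiquitin. The FBXA group is one of the expanded F-box groups of nematodes, and most of its genes have no assigned target. The *pals* genes, whose proteins share the ALS2CR12 domain, are known in *C. elegans* from the intracellular pathogen response, a transcriptional response to microsporidia and to the Orsay virus. In that response *pals-22* is a repressor and *pals-25* an activator, and *pals-5* is widely used as a reporter gene. N6-methyladenine is a common mark in bacterial DNA, and its abundance in animal DNA is debated.

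Positions are given on the build ce10, as deposited. The F-box peaks all lay on chromosome III. The peak named for *fbxa-55*, which the list describes as an F-box A protein, ran from 931076 to 931741 and was 666 bp wide. It was classed as intergenic, 4659 bp downstream of the nearest start of *fbxa-55*, and so lay outside any annotated transcript. That start is of a non-coding transcript record, although a gene table of the assembly WBcel235 calls *fbxa-55* protein-coding. The peak named for *fbxa-75*, another F-box A gene, ran from 1303014 to 1303302 and was 289 bp wide. It was classed as a promoter peak and lay 556 bp upstream of the start. The peak named for *fbxa-15*, the remaining F-box gene, ran from 1320441 to 1320757 and was 317 bp wide. It lay in intron 1 of 2, at 1062 bp downstream of the start. The 3 F-box peaks thus fell into 3 annotation classes and on both sides of the start.

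The *pals* peaks lay side by side on chromosome I. The peak in *pals-11* ran from 13124862 to 13125537, was 676 bp wide and was placed 485 bp downstream of the start. The peak in *pals-7* ran from 13129161 to 13129760, was 600 bp wide and was placed 580 bp downstream. Each was annotated to intron 1 of 2 of its gene. The list therefore places both at much the same point of neighbouring genes of the same family, 95 bp apart in distance to the start.

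**Figure D1:**
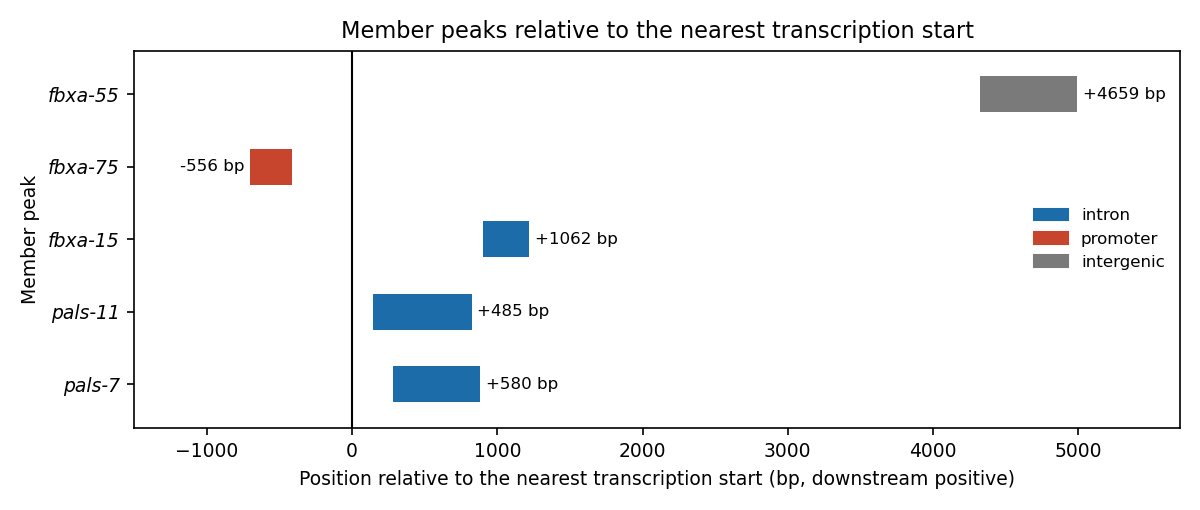
Member peaks drawn to scale against the nearest transcription start, with the x axis in bp (downstream positive), 1 bar per peak spanning its width, and colour for the deposited annotation class; labels give the deposited distance. The pals-11 and pals-7 bars lie at nearly the same place, 485 and 580 bp downstream, while the fbxa-55 bar lies 4659 bp downstream and the fbxa-75 bar 556 bp upstream.

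If the deposited distance is taken to the peak centre, which the sources used here do not state, no member peak covered a start. The *pals-11* peak then spanned 147 to 822 bp downstream and the *pals-7* peak 280 to 879 bp downstream. The *fbxa-15* peak spanned 904 to 1220 bp downstream, beyond both *pals* peaks. The *fbxa-75* peak spanned 412 to 700 bp upstream, and the *fbxa-55* peak 4326 to 4991 bp downstream. The 5 peaks thus left the start itself uncovered on this reading, by 147 bp at the least in *pals-11*.

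Intron 1 of 2 was the annotation of 3 of the 5 member peaks. In the whole list, these 3 included, it was given to 6 of 364 nuclear peaks (1.65%, exact 95% binomial interval 0.607 to 3.55%, counting error only). Among the 75 intronic peaks of the list, the same 6 made 8.0% (2.99 to 16.6%), against all 3 of the intronic member peaks. Intron 1 of any transcript held 20 of the 75 (26.7%), and transcripts of 2 introns held 8 (10.7%). Besides the members, the peaks in intron 1 of 2 were those named for the patched-related gene *ptc-3*, the chemoreceptor gene *srh-296* and R12B2.6. The *ptc-3* peak lay upstream of the start it was named for, so its intron is of another transcript than the one at that start. These 3 other genes were named after their values were seen. No test was made, since the members were few and chosen with the list in view. Of all nuclear peaks, 75 (20.6%, 16.6 to 25.1%) were intronic, 138 (37.9%, 32.9 to 43.1%) lay in promoters and 79 (21.7%, 17.6 to 26.3%) were intergenic.

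Width divided the members, though not wholly by family, since *fbxa-55* fell with the *pals* peaks. The *pals-11* peak was wider than 86.0% of the 364 nuclear peaks, the *fbxa-55* peak wider than 85.7% and the *pals-7* peak wider than 81.3%. The *fbxa-15* peak was wider than 28.6% of them and the *fbxa-75* peak wider than 17.9%. The first 3 lay above the upper quartile of the list (541.5 bp), *fbxa-15* between the lower quartile (310 bp) and the median (404 bp), and *fbxa-75* below the lower quartile. The 75 intronic peaks of the list were wider as a class, with quartiles of 391.5 and 696 bp around a median of 518 bp. Both *pals* peaks lay inside those quartiles, and the intronic *fbxa-15* peak lay below the lower one. The median was 638 bp for the 2 *pals* peaks, 317 bp for the 3 F-box peaks and 600 bp over all members. It was 488 bp for the 5 peaks named for C-type lectin genes and 449.5 bp for the 10 named for chemoreceptor genes, other large families of the worm. The F-box median thus lay below both of these and the *pals* median above both. With member widths from 289 to 676 bp and lectin widths from 415 to 1015 bp the ranges overlapped, and the difference was not tested.

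Distance to the start followed another order. From the nearest outward it ran *pals-11*, *fbxa-75*, *pals-7*, *fbxa-15* and *fbxa-55*. The *fbxa-55* peak lay farther from its start than 94.0% of nuclear peaks, and 11 of the 79 intergenic peaks lay farther still. The *fbxa-15* peak stood near the middle of the list, farther than 48.6% of peaks. The other 3 lay farther than 27.2 to 32.7% of peaks. Of the 5 peaks 4 lay downstream of the start, where the list as a whole had 158 of 364. These 4 include the 3 intronic members, and intronic peaks lay mostly downstream as a class (56 of 75), so nothing is read from this count.

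**Figure D2:**
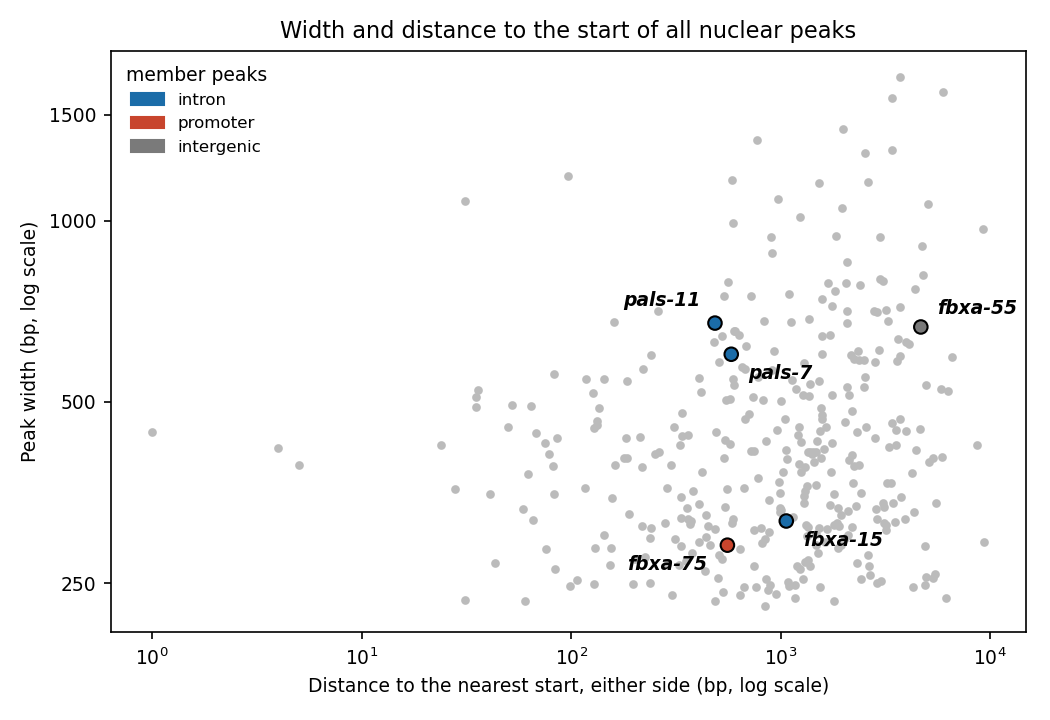
Width of each of the 364 nuclear peaks (y axis, bp, log scale) against its distance to the nearest start on either side (x axis, bp, log scale); grey points are other peaks and coloured points the 5 members by annotation class. The pals-11, pals-7 and fbxa-55 peaks are 600 to 676 bp wide and sit in the upper part of the cloud, and fbxa-75 and fbxa-15 (289 and 317 bp) in the lower part.

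The members also differed in how close other listed peaks lay. Within 30 kb, centre to centre, 4 of the 5 member peaks had at least 1 other listed peak, where 26.9% of all nuclear peaks did (22.4 to 31.8%). Nothing is read from this count, because closeness to other peaks was part of the choice. The exception was *fbxa-55*. The list had no other peak within 30 kb of it: the next on one side was named for T19C3.6, at 299 kb, and on the other for the ncRNA gene Y71D11A.8, at 216 kb. So the description as a gene in a peak cluster does not hold for *fbxa-55*, whose nearest listed peak was farther away than that of 79.4% of nuclear peaks.

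The peaks of *pals-11* and *pals-7* had each other as the single listed peak within 30 kb. Their centres were 4261 bp apart, and 14 of the 358 distances between listed neighbours were smaller. Nothing is read from this rank, because closeness to other peaks was part of the choice. Beyond the pair the list was empty for 309 kb on the *pals-11* side, up to the peak named for Y18D10A.4. On the *pals-7* side it was empty for 275 kb, up to the peak named for the neuropeptide-like gene *nlp-38*. The pair thus stood alone between listed peaks that lay 588 kb apart, and these outer distances were not ranked against the list.

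**Figure D3:**
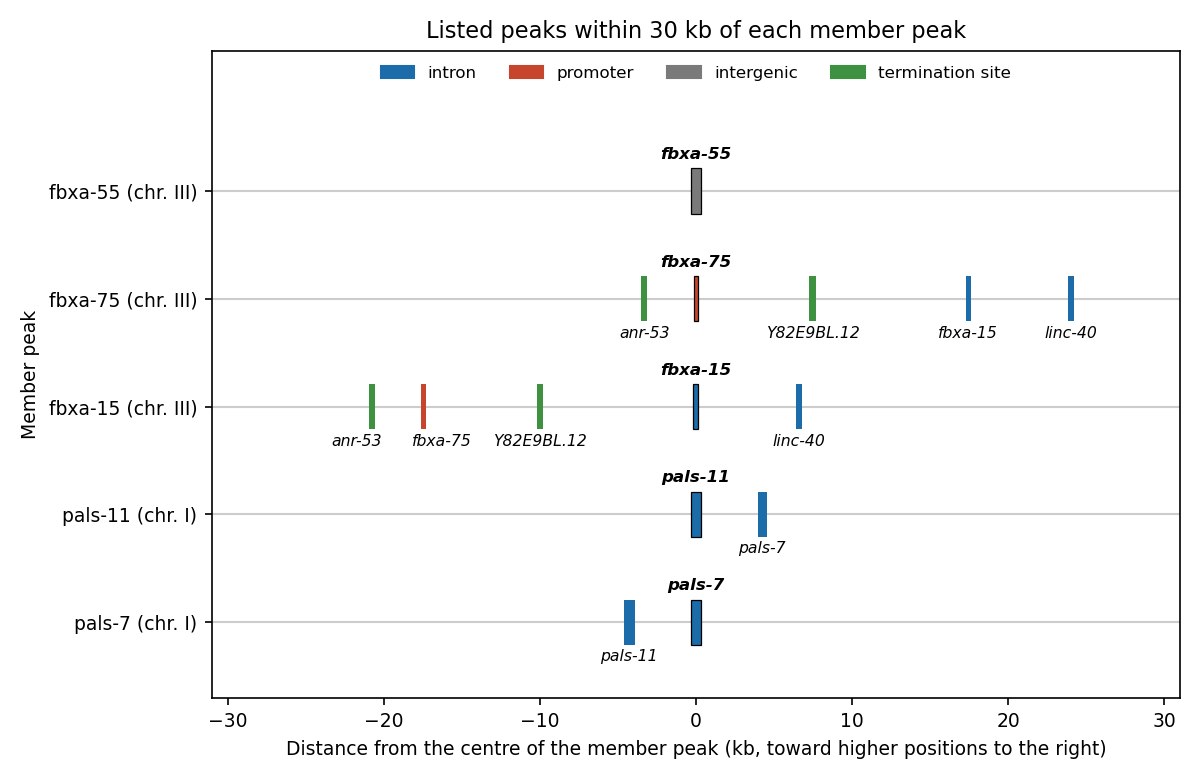
Listed peaks within 30 kb of each member peak, 1 row per member, with the x axis in kb from the centre of the member peak (outlined) and bars drawn to the width of each peak and coloured by annotation class. The fbxa-75 and fbxa-15 rows show the same 5 peaks from different centres, the pals rows show the same pair 4.26 kb apart, and the fbxa-55 row holds no other peak.

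The *fbxa-75* and *fbxa-15* peaks belonged to a run of 5 peaks on chromosome III, from 1299667 to 1327391. Each of the 5 had the other 4 within 30 kb. No other nuclear peak of the list had more than 2 such neighbours, so the peaks with 4 or more were these 5 (1.37% of 364). The run spanned 27725 bp, of which the peaks covered 1757 bp (6.34%). All 5 were below the median width of the list (404 bp), from 289 to 397 bp, with a median of 364 bp. The peaks of chromosome III had quartiles of 312 and 464 bp around a median of 390 bp, and the median of the run lay between these quartiles. The *pals* peaks, at 600 and 676 bp, were wider than any peak of the run.

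In order along the chromosome, the first peak of the run (1299667 to 1300030, 364 bp) was named for *anr-53*, an antisense RNA gene whose start lay 1473 bp away, with the peak upstream of it. The list annotates that peak to a termination site, and the gene table gives the transcript in question to a further F-box gene, *fbxa-28*. The *fbxa-75* promoter peak followed after 3309 bp. *fbxa-28* comes directly before *fbxa-75* in gene order. These 2 peaks therefore lay at the annotated end of one FBXA gene and before the annotated start of the next.

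The middle peak (1310431 to 1310827, 397 bp) came 7471 bp farther on. It was named for Y82E9BL.12, a protein-coding gene that the list calls hypothetical, 1442 bp downstream of its start, and was also classed as a termination site. The termination site is that of another transcript than the one at the nearest start, and neither transcript matched the gene table, so which gene ends there is not given. The *fbxa-15* intronic peak lay 9970 bp beyond it. The last peak (1327002 to 1327391, 390 bp) lay another 6597 bp on, in intron 2 of 3 of the long non-coding RNA gene *linc-40*, 1305 bp downstream of its start. The run thus held 1 promoter peak, 2 at termination sites and 2 in introns, and none of its peaks was classed as exonic or intergenic.

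Between centres, *fbxa-75* and *fbxa-15* were 17441 bp apart, with the Y82E9BL.12 peak between them. The most distant listed peak inside 30 kb was *linc-40* for *fbxa-75*, at 24.0 kb, and *anr-53* for *fbxa-15*, at 20.8 kb. The nearest one outside was in both cases named for the cadherin gene *cdh-12*, at 153 kb and 170 kb. For *pals-11*, *pals-7* and *fbxa-55* the nearest peaks outside lay at 279, 275 and 216 kb. Widening the limit to 100 kb would thus add no peak to any member, while narrowing it to 10 kb would leave 6 of the 10 neighbours summed over the members.

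Outside the run, the list was empty for 150 kb before the *anr-53* peak and for 304 kb after the *linc-40* peak, up to the peak named for Y22D7AL.11. These flanking distances were not ranked against the other gaps of the list. Joining peaks whose neighbouring centres lay at most 30 kb apart gave 45 runs of 2 or more peaks, with 98 peaks in all. Of these 39 were pairs, 5 were triplets, and the run around *fbxa-75* and *fbxa-15* was the single one of 5. The run with the most peaks was thus in an FBXA gene array, a fact known when the genes were chosen. It was not the longest in bp, since 4 of the triplets spanned 30682 to 32670 bp.

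**Figure D4:**
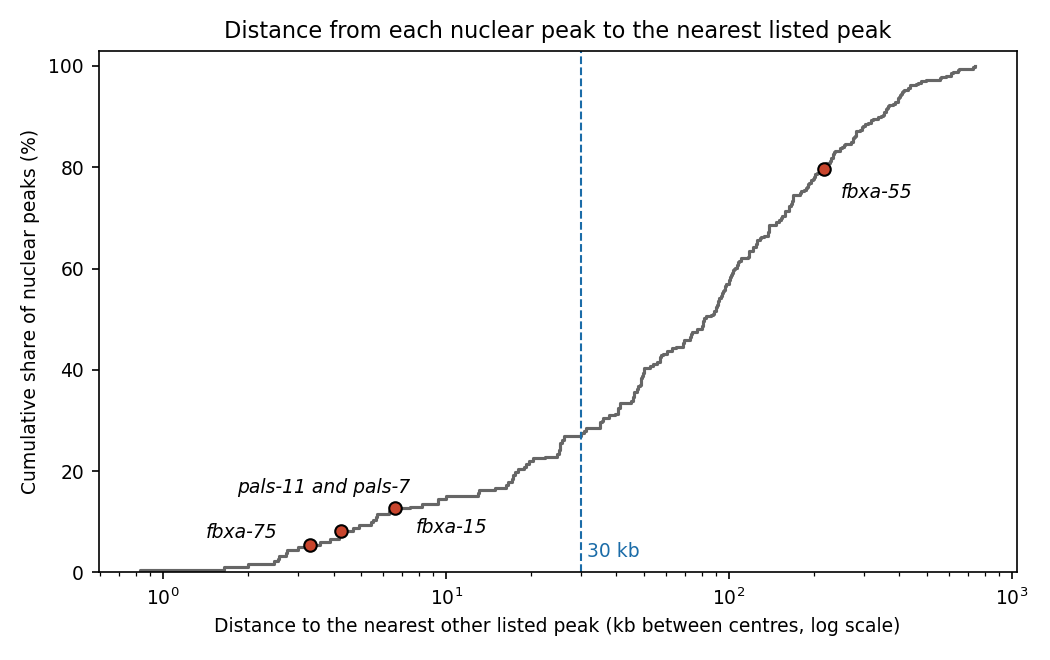
Cumulative share of the 364 nuclear peaks (y axis, %) against the distance to the nearest other listed peak (x axis, kb between centres, log scale), with the members as points and 30 kb as a dashed line. Members other than fbxa-55 lie between 3.31 and 6.60 kb, at the low end of the curve, and fbxa-55 lies at 216 kb, above the median of 81.5 kb. Closeness to other peaks was part of the choice of members, so nothing is read from these places.

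The peak numbers in the list rise with position on every nuclear chromosome. The highest is 1645, so the 365 listed peaks are at most 22.2% of those numbered, and how they were selected is not stated in any source used here. The run carried the numbers 550 to 554 without a break, and *pals-11* and *pals-7* carried 234 and 235. Such unbroken numbering was shared by 34 of the 45 runs of 2 or more peaks. If the numbers follow position throughout, no unlisted peak lay inside the run or the pair. Unlisted numbers did flank them: 3 before the run and 5 after it, and 8 before the pair and 4 after it. Around *fbxa-55*, which is number 541, 2 numbers before it and 3 after it were unlisted up to the next listed peaks, so the gap around *fbxa-55* may hold numbered peaks whose positions are not given. There were 2 stretches of 5 consecutive listed numbers. The other one, on chromosome II from the peak named for T22F3.14 to that named for F54F11.4, did not stay within 30 kb spacing.

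The gene families were then read as a whole from a gene table of the assembly WBcel235, used for names and gene order only. It holds 222 *fbxa* genes, of which 52 are pseudogenes, and 3 of the 222 (1.35%) were named for a listed peak. Named genes made up 344 (0.733%) of all 46926 genes there, and 238 (1.19%) of the 19983 protein-coding genes. The *fbxa* share counts pseudogenes in its base, and 170 of the 222 are protein-coding, so it is not directly comparable with the second share. At the share of all genes, 1.63 *fbxa* genes would have been named. The 3 *fbxa* members were chosen because they were named, so this is no result about the family. All 3 were among the 73 *fbxa* genes of chromosome III. None of the 92 on chromosome V, the 21 on chromosome II, the 17 on chromosome X, the 13 on chromosome I or the 6 on chromosome IV was named. With so few named genes to be had over the whole family at the share of all genes, these counts of 0 say nothing particular about those chromosomes. A further *fbxa* gene of chromosome III, *fbxa-28*, was reached by the annotated transcript alone. No member of the other expanded F-box groups was named for a peak, among 113 *fbxb* and 56 *fbxc* genes. At the share of all genes, 0.828 and 0.411 genes would have been named in these groups. Most of these genes are protein-coding, and the share of protein-coding genes (1.19%) would give somewhat higher numbers. A count of 0, which was not tested, sets them apart neither from the list nor from the FBXA group.

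Of 39 *pals* genes, *pals-11* and *pals-7* were the only ones named (5.13%, against 0.733% of all genes and 1.19% of protein-coding genes). The pair was chosen because it was named, so nothing is read from this share. They belong to the 15 *pals* genes of chromosome I. None of the 14 on chromosome III was named, which include the regulators *pals-22* and *pals-25*, nor any of the 8 on chromosome V or the 2 on chromosome IV. The reporter gene *pals-5*, which comes directly after *pals-7* in gene order, was not named either. With depth unknown and each peak named for its nearest gene alone, absence from the list does not show that a gene is unmodified.

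**Figure D5:**
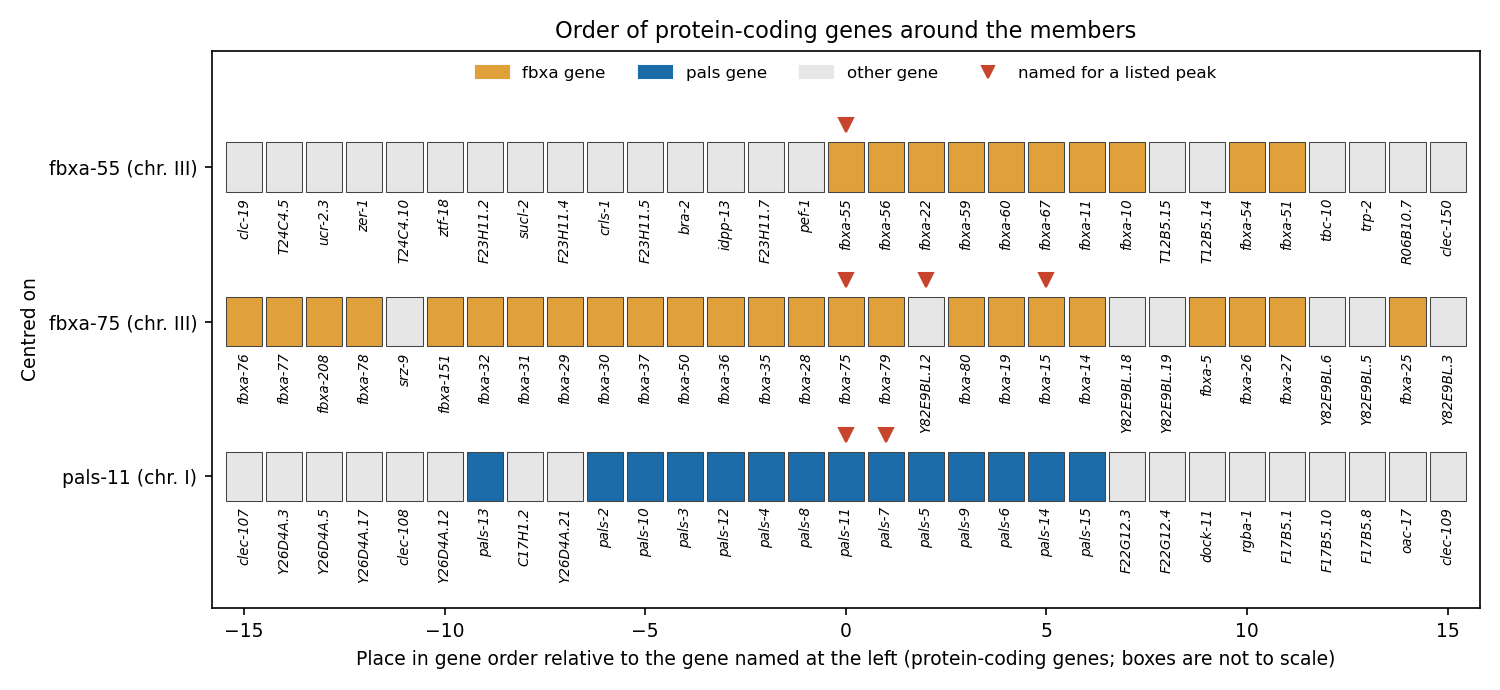
Order of protein-coding genes (x axis, places from the gene named at the left; boxes are not to scale) around fbxa-55, fbxa-75 and pals-11, with fbxa genes in orange, pals genes in blue, other genes in grey and a red mark above genes named for a listed peak. fbxa-55 begins a stretch of 8 fbxa genes, fbxa-75 is the eleventh of 12, and pals-11 and pals-7 lie in the middle of 13 pals genes.

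The members sat at different places in their arrays. *pals-11* and *pals-7* were numbers 7 and 8 of an unbroken stretch of 13 protein-coding *pals* genes from *pals-2* to *pals-15*, and the other 11 had no listed peak. One pseudogene, C17H1.12, lies between the pair. *fbxa-75* was number 11 of 12 protein-coding *fbxa* genes from *fbxa-151* to *fbxa-79*. *fbxa-15* was number 3 of 4 from *fbxa-80* to *fbxa-14*, and Y82E9BL.12 alone separates these 2 stretches among protein-coding genes. *fbxa-55* was the first of 8 from *fbxa-55* to *fbxa-10*, with *pef-1*, a gene outside the family, on its other side.

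Of the 20 nearest protein-coding genes in gene order, 10 on each side, 17 were *fbxa* genes for *fbxa-75*, 14 for *fbxa-15* and 8 for *fbxa-55*. The corresponding number of *pals* genes was 13 for each of *pals-11* and *pals-7*. From *anr-53* to *linc-40* the gene table lists 12 genes, of which 9 are *fbxa* genes, 1 of them the pseudogene *fbxa-20*. Of the 12, 5 were named for a peak: the 2 members, Y82E9BL.12 and both non-coding genes. The *fbxa* genes of this stretch that were not named were *fbxa-35*, *fbxa-28*, *fbxa-79*, *fbxa-20*, *fbxa-80*, *fbxa-19* and *fbxa-14*. The listed peaks of this stretch, which is bounded by the first and last genes of the run itself, were thus named for genes of several types.

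Genes whose products work with F-box proteins, and some further gene lists, were also looked up. None of 25 core SCF genes, which include the cullin genes *cul-1* and *cul-6* and the *skr* genes, was named for a listed peak. Neither was any of 8 F-box genes with well-known roles, such as *lin-23* and *sel-10*, which act in degradation of cell cycle and Notch pathway proteins, or *fog-2*, which acts in germline sex determination. The 114 *bath*, *math* and *btb* genes, from the expanded BTB and MATH families, had none. The same held for 6 genes tied to the intracellular pathogen response, among them its transcription factor gene *zip-1* and the viral RNA sensor gene *drh-1*. At the share of all genes (0.733%) each of these 4 lists would have held from 0.044 to 0.836 named genes. The lists are mostly protein-coding, and the share of protein-coding genes (1.19%) would give somewhat higher numbers. The counts of 0 were not tested and say nothing particular about these lists.

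Genes in these arrays are related copies, and reads that match several copies can be placed on the wrong one. The handling of such reads is not stated in any source used here, and whether it touched the member peaks was not tested.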

How the data were processed

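Libraries of genomic DNA were made with a NEBNext Ultra kit, per the labels' protocols. Per the submitters' processing notes, the tools were MACS2 2.1.0, Bowtie2 2.2.6, Trimmomatic 0.35 and Picard and the build was ce10, with no role given for any of them. Peak start, end and distance to the nearest start are in bp, per the file headers. The annotation tool is not stated in any source used here.

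Width was end minus start plus 1, and distances between peaks were taken between centres. Gene names, families and gene order came from an NCBI RefSeq table of WBcel235, none of whose coordinates was used; 344 of 364 nearest genes matched it by symbol. The transcripts annotated to the *pals-7* and Y82E9BL.12 peaks did not match. Intervals are exact (Clopper-Pearson) 95% intervals.

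The members and gene lists were chosen with earlier results of these data known. Named genes were the members, genes named for or annotated to peaks within 30 kb, list genes with a peak, and genes next to a member in gene order; flanking genes and list examples were named besides. Neighbour counting was tested on simulated data: all counts were right in 20 of 20 lists. No test between groups was made. Python 3.11.15, pandas 2.3.3, NumPy 2.4.6 and SciPy 1.17.1 were used.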

Additional observations from a re-analysis of the deposited data

How the results depend on the processing

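The run on chromosome III had 5 peaks with neighbouring centres at most 10, 30 or 100 kb apart. The member peaks had 10 listed neighbours in all (summed over members, so each pair of members counts at both) within 30 kb by centres, by nearest edges and within 100 kb, and 6 within 10 kb. The share of nuclear peaks with another listed peak, 26.9% within 30 kb, was 15.1% within 10 kb and 57.7% within 100 kb, as a window of another size gives by construction. Choosing members by the gene of the annotated transcript left 3 of 5 peaks, because the *fbxa-55* peak is intergenic and the *pals-7* transcript is not in the gene table. Counting annotated transcripts too gave 6 peaks for the F-box and *pals* families, with *fbxa-28* added. A single member peak was classed as promoter, and 3 lay within 1000 bp of a start. No paired analysis was possible because the groups hold 1 library each and the deposited list cannot be tied to any of them. Without read counts the precision of a peak's position and width is not known.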
